A study of Ovis aries with 12 samples.

Results

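Expression of 4 genes of blood vessels and their growth, VEGFA, ANGPT1, ROBO4 and NOS3, was followed in a thigh muscle, the biceps femoris, of late-gestation fetal sheep. Their probes were chosen by the gene name or sheep transcript record that the array gives, and those of ROBO4 by hand from the array's description. This rule uses no measured value, although the 4 genes themselves were picked with earlier results of these data known. The 4 are among 873 genes with a name used here, and they have 6 of the array's 15008 probes, 2 for VEGFA, 1 for ANGPT1, 2 for ROBO4 and 1 for NOS3. Ewes carrying a single fetus received either cortisol, as Solu-Cortef, at 1 mg/kg/day or vehicle, starting at day 115 of gestation, and fetal muscle was collected at day 139 to 144, soon after labour had begun. The series holds 6 samples from fetuses of cortisol-infused ewes and 6 from fetuses of vehicle-infused control ewes, out of 7 ewes treated in each arm, and each sample was hybridised to its own 1-colour array. All fetuses, controls included, had thus reached the onset of labour, and the hormone was given to the mother rather than to the fetus. The comparison asks whether a prolonged rise of maternal cortisol altered the levels of these transcripts in fetal muscle. The labels do not state the breed or sex, and, while every tissue field reads biceps femoris, the account of treatment mentions left ventricle.

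VEGFA encodes a secreted growth factor that endothelial cells sense through the receptor tyrosine kinases KDR and FLT1, and in muscle the fibres are one of its sources. ANGPT1 encodes angiopoietin-1, a ligand made largely by cells around the vessel wall that keeps endothelium quiescent through the receptor TEK, at which ANGPT2 can compete with it. ROBO4 is an endothelial receptor of the roundabout family that stabilises vessels, and NOS3 is the endothelial nitric oxide synthase, whose product relaxes vessel walls.

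The probes are 60 bases long, and their sequences are shown because they decide whether the paired probes of a gene are separate measurements. They are given 5′ to 3′ as the array lists them, with capitals marking the bases that both probes of a gene share. For ANGPT1 only the first 30 bases are printed, since its probe has a stop codon in all 3 forward reading frames and may lie outside the coding part.
VEGFA probe 1: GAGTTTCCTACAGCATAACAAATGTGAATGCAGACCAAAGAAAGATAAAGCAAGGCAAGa
VEGFA probe 2: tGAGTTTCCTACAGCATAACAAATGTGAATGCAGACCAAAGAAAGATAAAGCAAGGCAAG
ROBO4 probe 1: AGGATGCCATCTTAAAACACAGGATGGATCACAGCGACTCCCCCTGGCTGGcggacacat
ROBO4 probe 2: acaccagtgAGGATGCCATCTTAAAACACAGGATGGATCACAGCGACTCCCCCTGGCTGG
NOS3 probe: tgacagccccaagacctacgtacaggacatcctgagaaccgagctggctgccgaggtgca
ANGPT1 probe, start: attccacataggaaatgaaagcagaactac

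The VEGFA probes share 59 bases, being shifted by 1, and the ROBO4 probes share 51, being shifted by 9. The pairs therefore read almost the same stretch of a transcript and are not independent measurements of the gene. None of the 6 probes shared a run of 20 bases with any other probe of the array outside its own pair. G and C make up 38.3% of the VEGFA probes, 45.0% of the ANGPT1 probe, 55.0% of the ROBO4 probes and 60% of the NOS3 probe. The VEGFA and NOS3 probes were designed on the sheep transcript records NM_001025110 and NM_001129901. Those of ROBO4 come from a sheep sequence that the array lists as LOC100125615 and describes as Robo4, and the ANGPT1 probe comes from an expressed sequence tag. The files place none of the 6 probes on a genome, so their exons are not given here.

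All signals are log2 units of spot intensity relative to each array's own 75th percentile, with n = 6 arrays per group. That percentile lay between 187 and 447 intensity units, and the share of probes well above background on an array was 66.3% to 76.0%. The 6 probes studied passed that mark on all 12 arrays and none was saturated, so no level is only a bound. A signal here is the product of transcript level and probe affinity, and levels of different genes are not set against each other. In whole muscle, fewer endothelial cells and less RNA per endothelial cell cannot be told apart. By position the arrays form 3 sets of 4, 2 from each group: replicates 1 and 2 of both groups on slide 1, replicates 3 and 4 in row 1 of slide 2, and replicates 5 and 6 in row 2 of slide 2. The p-values measure the spread between these samples, which the labels number as replicates without tying them to named ewes.

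Cortisol array 1 and control array 3 stood apart in some cell type markers, and the differences of the 4 genes are given with and without them. Cortisol array 1 had the lowest signals of all 12 arrays for the haemoglobin gene HBB (1.1, against 2.5 to 5.63 on the others) and the muscle regulator MYOD1 (-0.35, against 0.49 to 2.59). The red cell marker AHSP (-7.31) and the muscle marker MYOG (-0.48) were also lowest there. Of the fibroblast and matrix markers DCN (5.86), VIM (7.17) and COL3A1 (0.74) were highest on that array, and COL1A2 was not. Of the leukocyte markers CD14 (-2.20) and ITGB2 (-1.97) were highest on it, and FCER1G was not. The adipocyte gene FABP4 was highest there (-0.97, against -6.78 to -2.49), but the other adipocyte markers did not follow it. PLIN1 (-1.57) and LPL (-0.42) were lowest of the 12 arrays on cortisol array 1, and LEP and PPARG were at neither end. Control array 3 had MYH1, a fast-fibre myosin gene, at 0.50 against 4.92 to 6.37, and MYH7, the slow-fibre myosin gene, at 3.97 against -0.53 to 2.04. In the liver marker ALB control arrays 1 and 4 stood apart, at 2.57 and 2.33 against -6.29 to -1.21 on the others. Control arrays 1 and 4 were not left out together. Of 16 listed skeletal muscle markers 7 were measured, MYOD1 and MYOG among them, and none of 10 listed heart markers was matched to a probe by name.

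All 6 probes had lower means in the cortisol group, by 0.19 to 0.34 log2 units, and none of these differences passed the test. The 6 means were also lower under each other scaling tried and in the deposited values, but VEGFA, NOS3 and ROBO4 probe 1 changed sign in other alternatives given with each gene. Over all 10730 tested probes, 54.0% had a lower mean in the cortisol group, 0 passed an adjusted p of 0.05 in limma, and 732 (6.82%) had an unadjusted p under 0.05, 502 of them (4.68%) with a lower cortisol mean. None of the 6 probes was among those 732, and the groups overlapped for every one of the 6. Groups that did not overlap were found for 0.317% of tested probes with every cortisol array lower and for 0.0932% with every cortisol array higher. The adjusted p of the 6 probes in limma ran from 0.803 for ANGPT1 to 0.931 for NOS3.

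**Figure D1:**
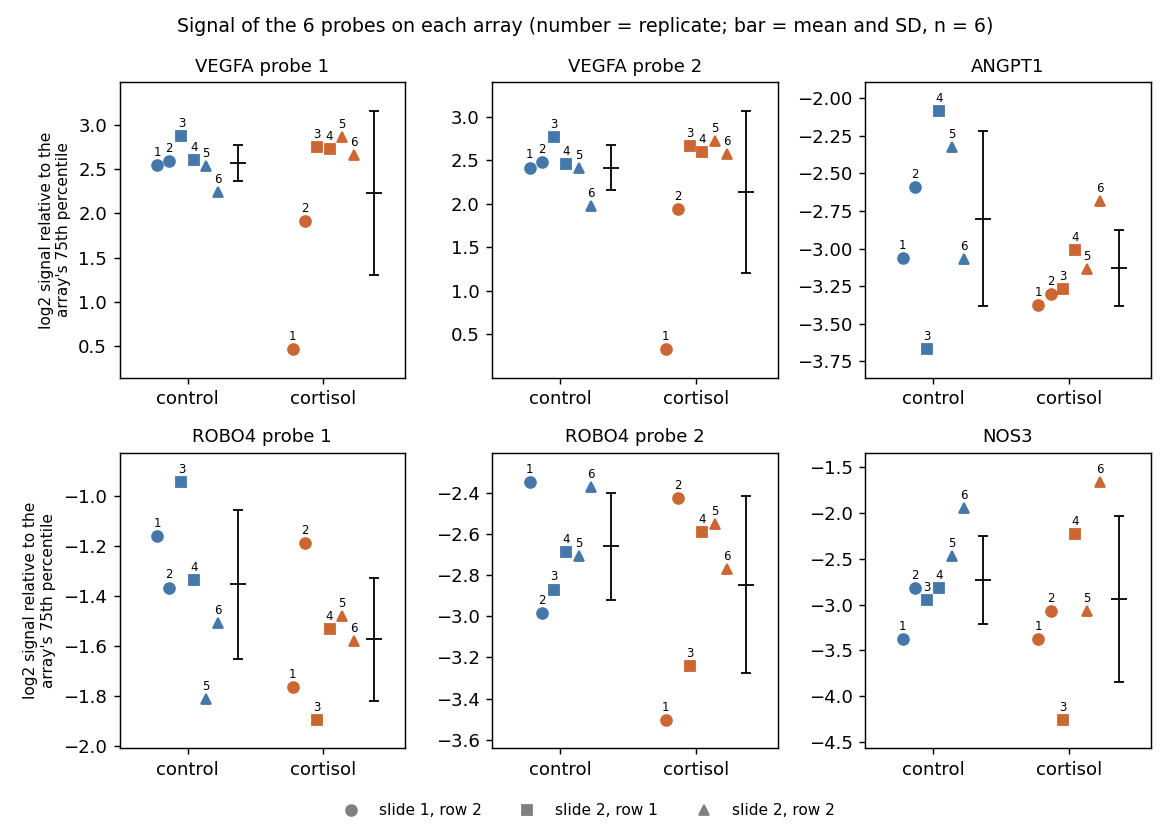
Log2 signal of each of the 6 probes (vertical axis, relative to the array's 75th percentile) on the 6 control (blue) and 6 cortisol (orange) arrays, with the replicate number above each point, the slide and row as its shape, and the mean and SD of the group as the black bar. Cortisol array 1 lies at 0.47 for VEGFA probe 1 while the other cortisol arrays lie between 1.91 and 2.86, and the groups overlap in every panel.

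VEGFA signal was high and narrowly spread in controls, and in the cortisol group 4 arrays lay within the control range and 2 below it. On probe 1 the control arrays had a lowest value of 2.24, a median of 2.56 and a highest value of 2.87. The cortisol arrays had a lowest value of 0.47, a median of 2.69 and a highest value of 2.86. The cortisol median was thus above the control median although the cortisol mean was below the control mean, because the low values sat on cortisol array 1 (0.47) and cortisol array 2 (1.91), which share slide 1.

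The mean of VEGFA probe 1 was 2.56 ± 0.20 (SD, n = 6) in controls and 2.23 ± 0.93 in the cortisol group. The log2 fold change was -0.34 (95% interval -1.08 to 0.41), with an adjusted p of 0.858 in limma and an exact two-sided permutation p of 0.524. That interval runs from 0.472 to 1.33 times the control level. For probe 2 the means were 2.42 ± 0.26 and 2.14 ± 0.93, differing by -0.28 (95% interval -1.04 to 0.48), with an adjusted p of 0.890 in limma. On probe 2 the control arrays ranged from 1.97 to 2.76 with a median of 2.44, and the cortisol arrays from 0.33 to 2.72 with a median of 2.58.

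The sign of the VEGFA difference rested on cortisol array 1. Without it the log2 fold change was 0.016 on probe 1 and 0.082 on probe 2, and without both cortisol array 1 and control array 3 it was 0.078 and 0.15. Within slide 1 the cortisol mean of probe 1 was 1.37 below the control mean, a difference of -1.37, whereas it was -0.0062 within row 1 of slide 2 and 0.37 within row 2 of slide 2. Probe 2 gave -1.31, 0.018 and 0.46 in the same 3 sets. The VEGFA difference therefore had no common direction across the sets.

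**Figure D2:**
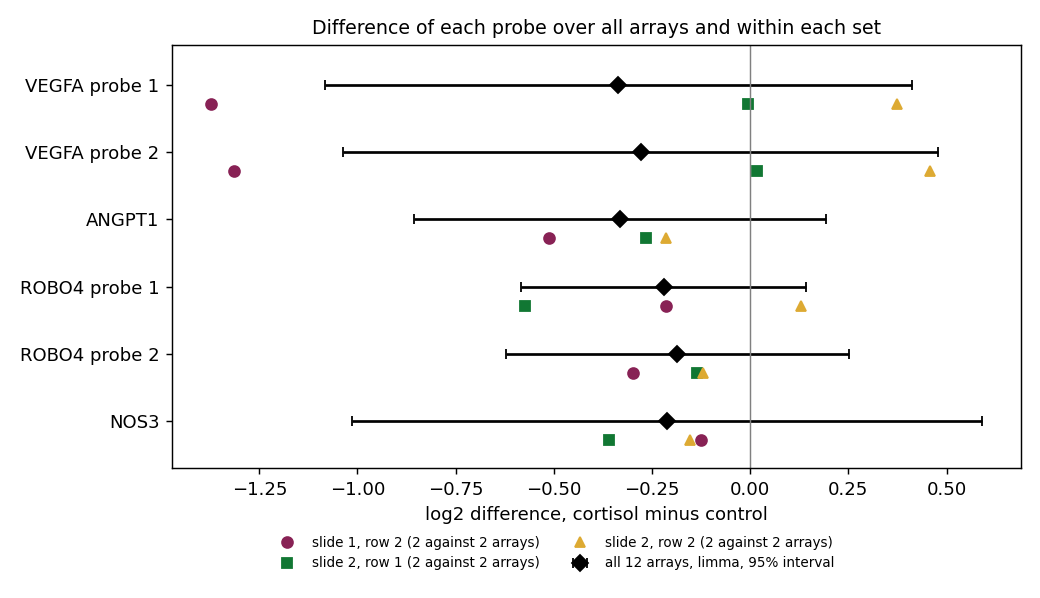
Log2 difference, cortisol minus control (horizontal axis), of each probe over all 12 arrays (black diamond, limma estimate with its 95% interval) and within each of the 3 sets of 2 control and 2 cortisol arrays (coloured points, mean differences with no test). All 6 intervals include 0, and the VEGFA sets run from -1.37 to 0.37 for probe 1 while the 3 ANGPT1 sets lie between -0.51 and -0.22.

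Cortisol arrays differed more among themselves in VEGFA signal than control arrays did. The SD of probe 1 was 4.59 times as large in the cortisol group as in controls, and that of probe 2 was 3.64 times as large, beside a median ratio of 1.34 over all tested probes. Without cortisol array 1 the ratios were 1.88 and 1.25, beside a median of 1.29 over all tested probes, so the larger spread rested mainly on that array. These ratios were not tested. Both probes, each a single spot, showed the spread together: over the 12 arrays, centred on their group means, they correlated at r = 0.996, and at 0.984 without cortisol array 1. The difference between them had an SD of 0.066 log2 units over the 12 arrays. For the dimmer probe of the endothelin receptor gene EDNRA, which is repeated, the SD between its 5 spots on an array ran from 0.066 to 0.31. The mean signal of that probe was -3.57, far below that of the VEGFA probes. Over the 29 tested probes printed at least 5 times the median SD was 0.14. The VEGFA value is a spread of differences over arrays and the others are spreads of single spots within an array, so they are unlike measures. Since the VEGFA probes share nearly all bases, their likeness shows how repeatable the readout was and not that a second stretch of the transcript behaved alike.

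**Figure D3:**
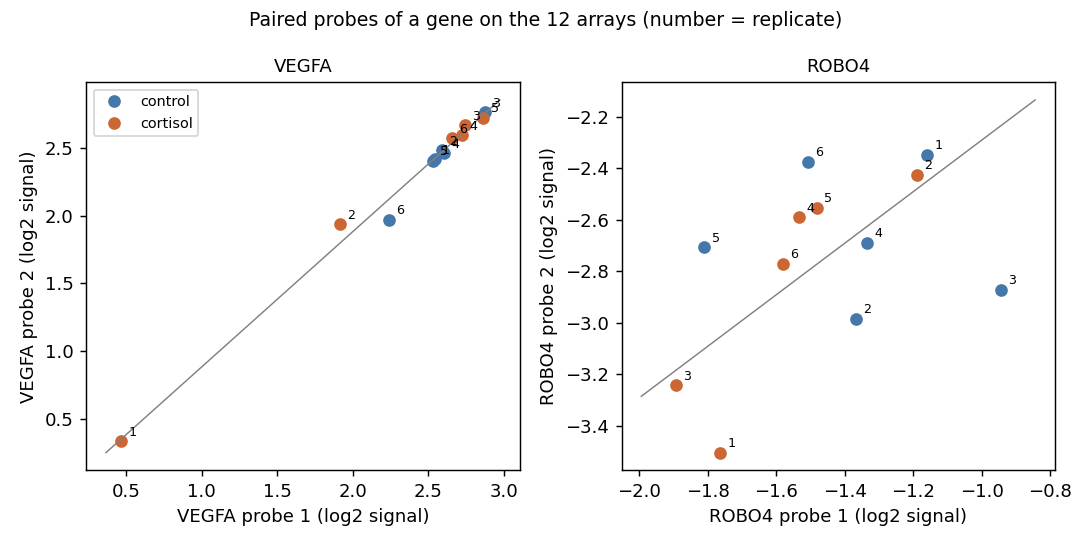
Log2 signal of probe 2 (vertical axis) against probe 1 (horizontal axis) for VEGFA, left, and ROBO4, right, on the 6 control (blue) and 6 cortisol (orange) arrays, numbered by replicate, with a grey line of slope 1 through the mean difference. The VEGFA points lie along the line with an SD of 0.066 for the difference, and the ROBO4 points scatter about it with an SD of 0.33.

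ANGPT1, read by 1 probe, kept a negative difference in every set and in every processing alternative. ROBO4 probe 2 did so too, whereas ROBO4 probe 1 did not, and NOS3 was negative in every set but not in every alternative. In controls the lowest ANGPT1 value was -3.67, on array 3, the median -2.83 and the highest -2.09, on array 4. In the cortisol group the lowest value was -3.38, the median -3.20 and the highest -2.69. The cortisol arrays all lay inside the control range, and 5 of 6 lay below the control mean.

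The means were -2.80 ± 0.58 in controls and -3.13 ± 0.25 in the cortisol group, so the log2 fold change was -0.33 (95% interval -0.86 to 0.19). The adjusted p was 0.803 in limma, and the exact two-sided permutation p was 0.223. Here the larger spread was that of the controls, the ratio of SDs being 0.438. Leaving out control array 3 gave -0.50, with an unadjusted p of 0.0324 in limma that did not pass over all probes, and leaving out control array 4 gave -0.19. Without control array 3 and cortisol array 1 together the log2 fold change was -0.46, and in the deposited values it was -0.21. Within the 3 sets it was -0.51, -0.26 and -0.22.

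A further probe, which the array names ANG-1 without describing it, falls outside the rule, as that name is used for angiopoietin-1 and for other products. It averaged -1.68 ± 0.56 in controls and -2.06 ± 0.60 in the cortisol group, so its log2 fold change was -0.38 (95% interval -1.03 to 0.28, adjusted p of 0.817 in limma). Over the 12 arrays it followed the ANGPT1 probe at r = 0.80 and rho = 0.82, centred on group means. Its differences within the 3 sets were -0.81, 0.073 and -0.40, so its sign was not constant.

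ROBO4 probe 1 had the smallest SD of the 6 probes once both groups were pooled, although VEGFA probe 1 was tighter in controls. Probe 1 in controls had a lowest value of -1.81, a median of -1.35 and a highest value of -0.94, and in the cortisol group -1.89, -1.56 and -1.19. The means were -1.35 ± 0.30 and -1.57 ± 0.24, which differ by -0.22 (95% interval -0.58 to 0.14, adjusted p of 0.811 in limma, exact permutation p of 0.197). Of the 6 cortisol arrays, 5 lay below the control mean and 1 below every control.

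On probe 2 the control values were -2.98 at the lowest, -2.70 at the median and -2.35 at the highest, and the cortisol values were -3.50, -2.68 and -2.43. The means were -2.66 ± 0.26 and -2.85 ± 0.43, which differ by -0.19 (95% interval -0.62 to 0.25, adjusted p of 0.872 in limma, exact permutation p of 0.394). The low values of probe 2 sat on cortisol array 1 (-3.50) and cortisol array 3 (-3.24). These 2 arrays were also the lowest of the cortisol group on probe 1, at -1.76 and -1.89.

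The ROBO4 probes followed each other less closely than those of VEGFA. Their correlation over the 12 arrays, centred on group means, was r = 0.42 with rho = 0.59, and the difference between them had a mean of 1.29 and an SD of 0.33 log2 units. On control array 3 probe 1 had its highest value of all arrays (-0.94), whereas probe 2 was at -2.87, near the low end of the controls. The probes thus ranked single arrays differently. Within the sets probe 1 gave -0.21, -0.57 and 0.13 and probe 2 gave -0.30, -0.14 and -0.12. Without control array 3 and cortisol array 1 the differences were -0.099 and -0.096, and without cortisol array 1 alone probe 2 gave -0.054.

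NOS3 varied widely in both groups. Controls had a lowest value of -3.38, a median of -2.82 and a highest value of -1.95, and cortisol arrays had -4.26, -3.07 and -1.66. Cortisol array 3 was the lowest and cortisol array 6 the highest of all 12 arrays, so the cortisol group enclosed the control group. The means were -2.73 ± 0.48 and -2.94 ± 0.90, so the log2 fold change was -0.21 (95% interval -1.01 to 0.59, adjusted p of 0.931 in limma, exact permutation p of 0.628).

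Without cortisol array 3 the NOS3 difference was 0.051, and without cortisol array 6 it was -0.47. Without control array 3 and cortisol array 1 it was -0.17, in the deposited values -0.082 and with normexp background correction -0.088. Within the 3 sets it was -0.12, -0.36 and -0.15. Its spread within groups, an SD of 0.72, was larger than that of 90.3% of tested probes, while the corresponding share was 87.6% for VEGFA probe 1, 65.8% for ANGPT1 and 24.9% for ROBO4 probe 1.

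No pair of the 4 genes varied together over the arrays to an extent that passed the test. For the 6 pairs, with VEGFA and ROBO4 by probe 1 and values centred on group means, Pearson's r ran from -0.45 to 0.36 over 12 arrays. The most negative was ANGPT1 with ROBO4 (r = -0.45, rho = -0.36, permutation p of 0.199, or 0.597 adjusted over the 6 pairs by Benjamini-Hochberg), and without the 2 arrays farthest from the ANGPT1 median r was -0.31. The most positive was ANGPT1 with NOS3 (r = 0.36, rho = 0.45, permutation p of 0.161, or 0.597 adjusted), and without the same 2 arrays r was 0.53. VEGFA with NOS3 gave r = 0.13 and ROBO4 with NOS3 r = 0.0044. The values for ROBO4 depended on the probe: probe 2 gave 0.074 with ANGPT1, 0.42 with NOS3 and 0.42 with VEGFA, the last being -0.28 without cortisol array 1. None of the 6 pairs passed the adjustment.

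Among the measured genes with a name, the signal most like that of NOS3 was PECAM1, an adhesion molecule that marks endothelium. The correlation was r = 0.90 and rho = 0.90 over 12 arrays, and 0.94 without the 2 arrays farthest from the NOS3 median. PECAM1 itself ranged from 2.65 to 3.52 in controls and from 2.62 to 3.47 in the cortisol group, with a log2 fold change of -0.089. TIE1, a receptor tyrosine kinase of endothelium, followed NOS3 at r = 0.82 and TEK at 0.64, whereas CAV1, of caveolae, gave 0.12 and FLT1 -0.048. Next after PECAM1 came PGR, the progesterone receptor gene, at r = 0.90 and GNG11, a G protein subunit gene, at r = 0.87. These r values, like those that follow, share the array and its scaling between both genes and are descriptions only. Over all tested probes, 2.00% had r above 0.8 with NOS3.

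For ROBO4, equally a marker of endothelium, the 2 probes gave different values. Probe 1 had r = -0.29 with PECAM1, 0.047 with TIE1 and -0.14 with KDR, whereas probe 2 had 0.27, 0.34 and 0.46, the last falling to 0.17 without cortisol array 1. By rank, probe 2 had rho of -0.021, 0.18 and 0.23 with the same markers. With CAV1 both probes had negative values, r = -0.40 for probe 1 and -0.60 for probe 2. TEK gave -0.34 and 0.078, and FLT1 0.061 and 0.36. The genes most like probe 1 were IL12A, an interleukin subunit gene (r = 0.83), LOC780455 (r = 0.81) and OXT, the oxytocin gene (r = 0.77), and with probe 2 the same genes gave 0.050, 0.48 and 0.37. ANGPT1 was most like TRPV6, a calcium channel gene (r = 0.77), LDHA, of lactate metabolism (r = 0.72), and UCP3, a mitochondrial carrier gene of muscle (r = 0.72). For ANGPT1 these r values lay between 0.43 and 0.57 without control arrays 3 and 4.

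VEGFA was most like EPAS1, which encodes the oxygen-regulated transcription factor HIF-2alpha (r = 0.94, rho = 0.85), then PTGS1, a prostaglandin synthase gene (r = 0.90), and FST, the follistatin gene (r = 0.88). All 3 were lowest of the 12 arrays on cortisol array 1, and without that array r was 0.77, 0.71 and 0.63. EPAS1 was at -5.15 there and between -4.37 and -3.86 on the other 11 arrays. Its 4 probes differed in sign between the groups, from -0.45 to 0.13. Over all tested probes, 0.943% had r above 0.8 with VEGFA.

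**Figure D4:**
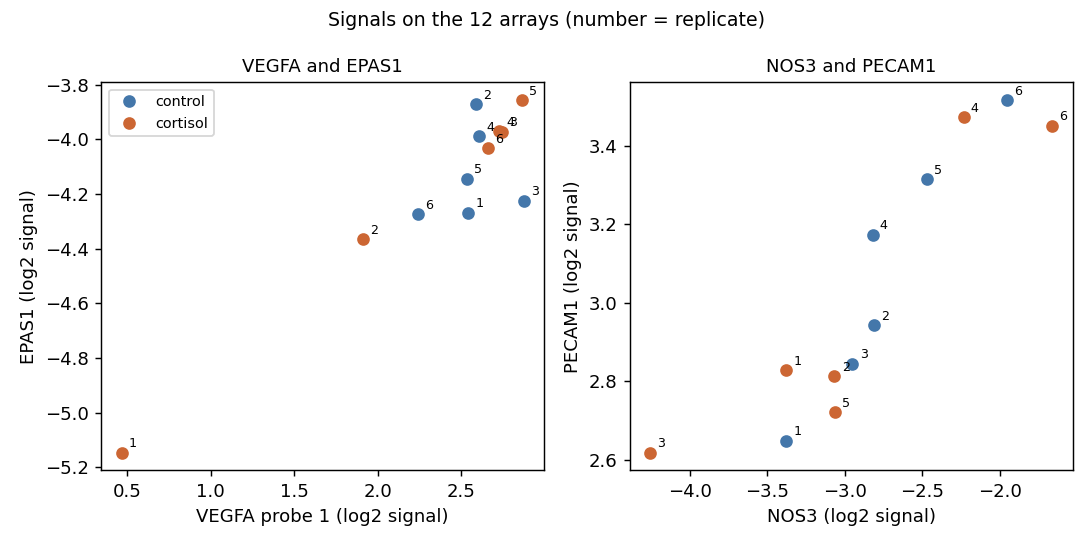
Log2 signal of EPAS1 against VEGFA probe 1 (left) and of PECAM1 against NOS3 (right) on the 6 control (blue) and 6 cortisol (orange) arrays, numbered by replicate. On the left, cortisol array 1 lies apart at 0.47 and -5.15, and on the right the arrays of both groups run from low on both axes to high on both, at r = 0.90 after centring on group means.

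On cortisol array 1, picked out here by its low VEGFA value, some related genes were also at their lowest. Of the 4 measured VEGF ligands and receptors other than VEGFA, FLT1 and KDR had their lowest signal of the 12 arrays there, whereas NRP1 and PGF did not. Of the 6 hypoxia genes other than VEGFA, HIF1A, EPAS1 and SLC2A1 were lowest there, whereas ARNT, EPOR and LDHA were not. The other lists had fewer such genes: 0 of 4 in the angiopoietin and TIE list and 0 of 3 in the SLIT and ROBO list. In the nitric oxide and endothelin list 2 of 12 were lowest there, and of the 8 endothelial markers 2 were, again FLT1 and KDR. CAV1, which is in both of these lists, was instead highest of the 12 arrays there (1.05, against -0.20 to 0.94). Over all tested probes 14.4% were lowest on cortisol array 3. On cortisol array 1, 14.4% were lowest and 12.6% highest. FLT1 was at -4.32 there and between -2.98 and -0.23 elsewhere, and SLC2A1, a glucose transporter gene, was at -2.98 against -2.92 to -0.42. HBB and MYOD1 were lowest on the same array, and some fibroblast, matrix and leukocyte markers were highest on it, as given above. The part of these markers in the VEGFA value was not tested.

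The rest of the VEGF system showed no difference past the test. Of the 11 listed ligands and receptors 5 were measured, with 2 means higher, 3 lower and a median log2 fold change of -0.082, beside -0.023 over all tested probes. KDR, the main signalling receptor, had a log2 fold change of 0.02, the co-receptor NRP1 -0.084 and the placental growth factor gene PGF -0.082. FLT1, a receptor that can act as a decoy for VEGFA, had 0.046, but its SD was 0.25 in controls and 1.37 in the cortisol group, whose values ran from -4.32 to -0.23. Probes of KDR and of FLT1 differed in sign between the groups.

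Of 8 listed angiopoietin and TIE genes 4 were measured, with 1 mean higher and 3 lower. Beside ANGPT1 at -0.33, its competitor ANGPT2 had a log2 fold change of 0.12 and the receptors TEK and TIE1 -0.022 and -0.034. The ANGPT2 value is from a probe that the array names ANG-2 and that was assigned by hand, unlike the ANG-1 probe, which was kept apart. The probes that the array names angpt2 gave 0.0035 and 0.24. Probes of ANGPT2, TEK and TIE1 differed in sign. Of 10 listed guidance genes of the SLIT, ROBO and netrin families 3 were measured, all with lower means and a median of -0.23: the secreted ligand SLIT3 at -0.23 (95% interval -0.55 to 0.096), ROBO4 at -0.22 and the netrin gene NTN4 at -0.34. NTN4 was -0.08 on control array 3 and between -2.91 and -1.97 on the other controls, and without that array its log2 fold change was 0.021. SLIT2, ROBO1 and ROBO2 were on the array but not tested, since no probe of theirs was well above background on 6 arrays: those of ROBO1 and ROBO2 were on 5 each, and the better SLIT2 probe on 4.

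Around NOS3, 12 of 24 listed nitric oxide and endothelin genes were measured, with 4 means higher and 8 lower and a median of -0.086. EDN1, which encodes the vasoconstrictor endothelin-1, had the 1 unadjusted p under 0.05 in this list. Its control values ran from -2.75 to -1.72 and its cortisol values from -2.09 to -1.18, with 3 cortisol arrays above every control. The log2 fold change of EDN1 was 0.49 (95% interval 0.034 to 0.95, unadjusted p of 0.0371 and adjusted p of 0.710 in limma), so it did not pass over all probes. The difference was 0.19 (95% interval -0.044 to 0.42) with normexp background correction, and the interval included 0 in 11 of 31 alternatives, 6 of them with 1 array left out. This 1 gene of 12, or 8.33% of the list, stands beside 6.82% of all tested probes.

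The endothelin receptor genes EDNRA and EDNRB had log2 fold changes of 0.015 and -0.09, and ECE1, whose enzyme matures endothelin, 0.063. The inducible synthase NOS2 had -0.13, the guanylate cyclase subunit GUCY1B1 -0.16, the cyclic GMP-dependent kinase PRKG1 -0.27 and ARG2, an arginase that uses the same substrate as NOS3, 0.061. CAV1, AKT1 and HSP90AA1, whose products regulate the NOS3 enzyme, had -0.082, -0.095 and -0.037. Probes of EDNRA and of CAV1 differed in sign between the groups. The better of 2 NOS1 probes was well above background on 3 arrays, too few to be tested.

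Among 7 measured hypoxia genes, of 18 listed, 2 means were higher and 5 lower, with a median of -0.074. HIF1A had a log2 fold change of 0.21, SLC2A1 of 0.086, EPAS1 of -0.096 on the probe of highest signal (its probes differed in sign, as given above), EPOR of -0.074 and LDHA of -0.052. ARNT, the partner of both HIF alpha subunits, had -0.27 (95% interval -0.57 to 0.034, adjusted p of 0.757 in limma). Its other probe, of lower signal, gave -0.29 with an unadjusted p of 0.0260 in limma, which did not pass over all probes. Of the 27 genes of these lists other than the 4, only EDN1, SLIT3 and ARNT kept their sign in every alternative tried.

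**Figure D5:**
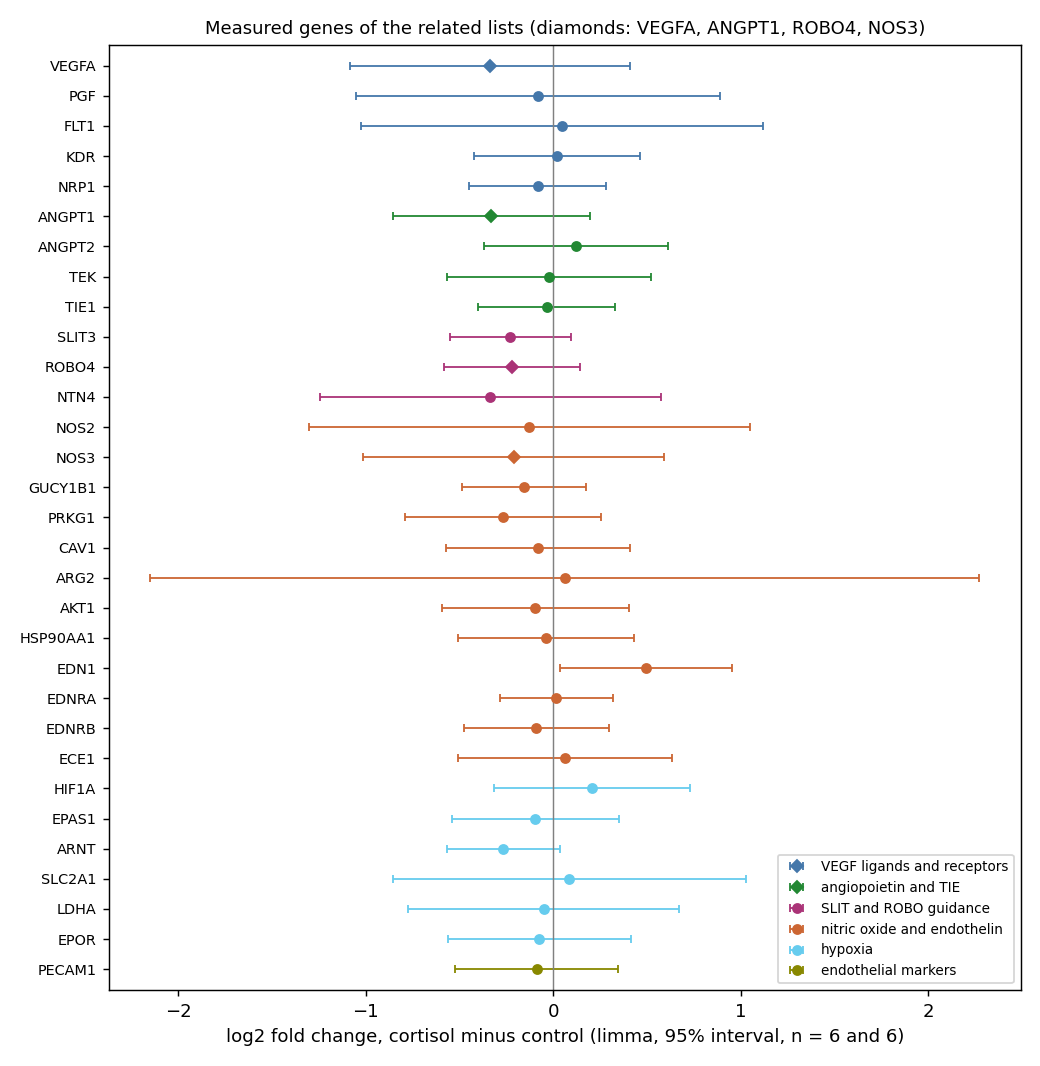
Log2 fold change, cortisol minus control (horizontal axis, limma estimate with its 95% interval, n = 6 arrays per group), of each measured gene of the related lists, coloured by list and given by its probe of highest mean signal, with VEGFA, ANGPT1, ROBO4 and NOS3 as diamonds. All intervals but that of EDN1, 0.034 to 0.95, include 0, and no gene passed the adjusted test.

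Of 30 listed markers 8 were measured, ROBO4 and NOS3 among them, with 2 means higher and 6 lower and a median log2 fold change of -0.058. The mean of the 8 per array ran from -1.56 to -1.19 in controls and from -1.77 to -1.01 in the cortisol group, so the groups overlapped. SELE and SELP, adhesion molecules of activated endothelium, were not tested, as their better probes were well above background on 3 arrays (all controls) and on 4. Of pericyte and smooth muscle markers, the cells beside the endothelium, 2 were measured, CNN1 at -0.06 and MYLK at 0.31. Markers of other cells also differed in their means, and their part in the values of the 4 genes was not tested. All 3 measured leukocyte markers had higher means in the cortisol group, with a median log2 fold change of 0.59 and 2 at an unadjusted p under 0.05, beside 6.82% of all tested probes: FCER1G at 0.59 and ITGB2 at 0.62, each with an adjusted p of 0.692 in limma. Of the 7 skeletal muscle markers 5 had lower means (71.4%, beside 54.0% of all tested probes) and 2 higher, with a median of -0.52. The higher ones were MYH1 at 1.17 and MYH2 at 1.06, larger in size than MYF5. Both had their lowest signal on control array 3, at 0.50 and 0.79. An unadjusted p under 0.05 in limma was found for 2 of the 7 (28.6%, beside 6.82%), MB at -1.46 and MYF5 at -0.60. Each had an adjusted p of 0.692. For MB every cortisol array lay below every control, as for 0.317% of tested probes. All 5 liver markers had lower means, with a median of -2.04. The medians were -0.11 for 5 adipocyte, 0.11 for 4 fibroblast and matrix and 0.59 for 2 red cell markers.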

How the data were processed

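Per the labels' protocols, Cy3 target was made from 500 ng of total RNA extracted with Trizol. Per the submitters' processing notes, the authors' scan software was Agilent Feature Extraction 10.1.1.1. Each spot, per the file headers, has a raw intensity, a local background and a processed intensity, from which background and spatial trend had been removed without any scaling across arrays. The other columns used are flags of 0 or 1 per spot (well above background, saturated, outlier), per the file headers. The authors' deposited value table is in log2 units. How it was normalized is not stated in any source used, and the table served as an alternative only.

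Controls aside, 15208 of the 15744 spots carry 15008 probes. Spots of a probe were averaged without outlier-flagged ones, and each probe's signal is its log2 processed intensity less the 75th percentile of all non-control probes of that array. Testing was limited to probes well above background on 6 or more of the 12 arrays, 10730 in number, so 4278 were removed. The groups were compared by limma 3.58.1 (R 4.3.3), using lmFit and eBayes without covariates, two-sided. All tested probes entered the Benjamini-Hochberg adjustment, the threshold was 0.05, and intervals are at 95%. Precision is limited by the number of arrays: the standard error of a difference was 0.207 at the median. Single values were also tested by exact permutation over all 924 splits of the arrays, and pair correlations by 100000 permutations. The limma step was checked on simulated data.

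Probes were named by transcript accession, gene symbol or a table made by hand from the array's descriptions, and a related gene stands for its probe with the highest mean signal. Sheep gene names came from the RefSeq gene table of assembly ARS-UI_Ramb_v3.0. Named are every probe of the 4 genes, every measured gene of the 6 related lists, up to 3 genes of other lists by size of difference, and the 3 genes most like each of the 4. Some markers that describe single arrays or had an unadjusted p under 0.05 in limma are named as well. The 4 genes and the lists were chosen with earlier results of these data known.

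Alternatives were normexp background correction (offset 50), median, quantile and other percentile scaling, the deposited values, other filters, outlier spots kept, blocks by slide, by row and by replicate number, single slides and rows, other variance models, array weights and each array left out. Leaving out control array 3 and cortisol array 1 together was chosen after seeing the data. Tables and figures were made in Python 3.11.15 with pandas 2.3.3, numpy 2.4.6, matplotlib 3.10.9 and scipy 1.17.1.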

Additional observations from a re-analysis of the deposited data

Results flagged for a closer look

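Values were picked out by Dixon's criterion, under which an array's distance from its nearest neighbour in a group of 6 is too large a share of the range of that group. Of 66 groups looked at, 6 had such a value, and chance alone gives about 1 in 20. VEGFA probe 2 was 0.33 on cortisol array 1, against 1.94 to 2.72 on the other cortisol arrays, while the almost identical probe 1 stayed under Dixon's limit. AKT1, whose kinase activates NOS3, was 1.28 on control array 6, against 0.48 to 0.62 on the other controls. ARG2 was 2.69 on cortisol array 2, against -4.65 to -2.68 on the other cortisol arrays. LDHA was 5.54 and NTN4 -0.077 on control array 3, the first below the other controls (7.10 to 7.77) and the second above them (-2.91 to -1.97). PGF was -5.57 on cortisol array 4, against -4.61 to -4.10 on the other cortisol arrays.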

How the results depend on the processing

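Of 31 alternatives, 30 left 0 probes past the adjusted p of 0.05 in limma and slide 1 alone gave 1. ANGPT1 and ROBO4 probe 2 kept a negative log2 fold change in all 31, ROBO4 probe 1 in 30, NOS3 in 29, and VEGFA probes 1 and 2 in 27 and 26. With 1 array left out, the log2 fold change ran from -0.46 to 0.016 for VEGFA probe 1, -0.40 to 0.082 for probe 2, -0.50 to -0.19 for ANGPT1, -0.31 to -0.14 and -0.27 to -0.054 for ROBO4 probes 1 and 2, and -0.47 to 0.051 for NOS3. The cause of each change of sign below was not tested, and settings with 2 or 4 arrays per group have wide intervals.

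Whether the replicate numbers pair the arrays was not settled. Same-numbered arrays correlated at -0.11 to 0.25 in their deviations from the group means. The cortisol array most like a control array had the same number for control arrays 3, 4 and 6, and another number for control arrays 1, 2 and 5. With the replicate block the log2 fold changes are the same by construction, with adjusted p in limma of 0.786 and 0.845 for VEGFA, 0.708 for ANGPT1, 0.768 and 0.849 for ROBO4 and 0.843 for NOS3, and 0 probes passed.

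Slide 2 alone gave VEGFA 0.18 (probe 1) and 0.24 (probe 2), ARG2 -0.97, EPAS1 0.20, EPOR 0.22, LDHA 0.24, PGF 0.20, TEK 0.039 and TIE1 0.087. Slide 2, row 1 alone gave VEGFA probe 2 0.018, ARG2 -1.22, ECE1 -0.82, EDNRB 0.34, EPAS1 0.14, GUCY1B1 0.041, HSP90AA1 0.0097, LDHA 0.65, NOS2 0.28, NRP1 0.12, PECAM1 0.037, PGF 0.75 and TIE1 0.038. Slide 2, row 2 alone gave VEGFA 0.37 and 0.46, ROBO4 probe 1 0.13, ANGPT2 -0.16, ARG2 -0.71, EPAS1 0.26, EPOR 0.54, KDR -0.18, PRKG1 0.38, TEK 0.19 and TIE1 0.14. Slide 1 alone gave AKT1 0.20, CAV1 0.21, EDNRA -0.11, FLT1 -1.41, HIF1A -0.20, NRP1 0.0054, NTN4 0.36, PECAM1 0.025 and SLC2A1 -0.24.

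Array weights gave NOS3 0.0032, ARG2 -0.044, NOS2 0.30, NRP1 0.013, PECAM1 0.0045, SLC2A1 -0.0029, TEK 0.052 and TIE1 0.055. The normexp background gave ANGPT2 -0.068, ECE1 -0.12 and EDNRA -0.0082. The deposited log2 values gave ECE1 -0.053, EDNRA -0.011, LDHA 0.0074, NOS2 0.25 and TEK 0.17. Quantile normalization gave LDHA 0.021, TEK 0.035 and TIE1 0.0031. Without control array 3 and cortisol array 1, VEGFA was 0.078 and 0.15, EPAS1 0.070 and NOS2 0.092.

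Ranges with 1 array left out that crossed 0 were -0.22 to 0.057 for AKT1, -0.023 to 0.22 for ANGPT2, -1.0 to 0.47 for ARG2, -0.22 to 0.032 for CAV1, -0.080 to 0.23 for ECE1, -0.041 to 0.082 for EDNRA, -0.17 to 0.0029 for EDNRB, -0.17 to 0.089 for EPAS1 and -0.16 to 0.090 for EPOR. They were -0.38 to 0.43 for FLT1, -0.0028 to 0.34 for HIF1A, -0.17 to 0.077 for HSP90AA1, -0.091 to 0.15 for KDR, -0.37 to 0.079 for LDHA, -0.52 to 0.18 for NOS2, -0.16 to 0.0089 for NRP1, -0.55 to 0.021 for NTN4, -0.48 to 0.14 for PGF, -0.23 to 0.28 for SLC2A1, -0.12 to 0.12 for TEK and -0.14 to 0.025 for TIE1.

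List medians, given in the report over all 12 arrays except that of pericyte markers (0.12), moved by more than the spread between replicates within single slides or rows. Slide 1 alone gave -0.65 for the VEGF list, -0.64 for hypoxia and 0.46 for fibroblast markers, and slide 2 alone gave 0.33 for adipocyte markers. Row 1 of slide 2 gave -0.57 for the SLIT and ROBO list and -0.25 for pericyte markers. Row 2 gave 0.28 for hypoxia, 0.49 for pericyte, 0.40 for adipocyte, 0.17 for skeletal muscle and 1.01 for liver markers, of which all but pericyte had the opposite sign over all 12 arrays. The normexp background gave 0.20 for leukocyte markers.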

Other observations

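Other angiogenic factors and inhibitors had more means higher than lower in the cortisol group. Of 40 listed, 23 were measured, with 16 means higher and 7 lower (30.4%, beside 54.0% of all tested probes) and a median log2 fold change of 0.094. In limma 0 passed the adjusted p of 0.05, and 2 (8.7%, beside 6.82% of all tested probes) had an unadjusted p under 0.05. FGF1, a fibroblast growth factor gene, averaged -0.037 ± 1.12 (SD, n = 6) in controls and -1.19 ± 0.87 in the cortisol group, so its log2 fold change was -1.15 (95% interval -2.24 to -0.058, adjusted p of 0.720 in limma). SERPINF1, which encodes the vessel-growth inhibitor PEDF, averaged -1.61 ± 0.41 and -1.08 ± 0.29, which differ by 0.53 (95% interval 0.096 to 0.97, adjusted p of 0.692 in limma). DLL4, the Notch ligand of sprouting endothelium, had -0.51 (95% interval -1.17 to 0.14).

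Genes made mainly in liver differed widely between control arrays. The mean of the 5 measured liver markers ran from -5.11 to 2.28 on control arrays and from -4.52 to -2.14 on cortisol arrays. Control arrays 1 and 4 had the highest signals of all arrays for ALB (2.57 and 2.33) and AHSG (5.31 and 6.92). The 5 means were lower in the cortisol group, among them AHSG at -3.62 (95% interval -7.71 to 0.48) and ALB at -2.72 (95% interval -5.49 to 0.042), with adjusted p of 0.757 and 0.729 in limma. Their part in any difference given here was not tested.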
